A study of Mus with 16 samples.

Results

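Bulk RNA was compared between 2 kinds of F1 hybrid mouse epiblast stem cells, named PwkB6 and SpretB6 in the sample titles. PwkB6 cells carry 1 genome of the wild-derived inbred strain PWK and 1 of the laboratory strain C57BL/6J. SpretB6 cells carry 1 genome of the wild-derived strain SPRET and 1 of C57BL/6J. The C57BL/6J genome is therefore shared by both groups, and no treatment separates them in the labels. The 8 libraries were chosen by title, 4 of PwkB6 and 4 of SpretB6, out of 16 in the series. The other 8 libraries, 4 of CastB6 and 4 of MolfB6, have the same laboratory parent and were kept in the statistical fit. The libraries of a cross are told apart only by the number in the title (1, 3, 5 and 6 in both crosses), so they are called PwkB6 1 and so on. Whether these numbers stand for separate lines, cultures or animals is not stated, nor are the sex of the cells and the direction of the cross. The p-values therefore measure only how far libraries scatter, and part of that scatter may be technical. For the edgeR tests per transcript this scatter was estimated over all 16 libraries together, not over the 8 compared ones alone.

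Epiblast stem cells are pluripotent and resemble the epiblast of the implanted embryo, a state often called primed. An F1 hybrid holds both parental genomes in 1 nucleus, so that a regulatory difference acting on the gene copy beside it can show as a difference between alleles. PWK belongs to Mus musculus musculus, whereas SPRET comes from Mus spretus, a separate species that parted from the house mouse lineage earlier than the house mouse subspecies parted from each other. The series was made to compare allelic mapping in bulk and in droplet single-cell data. The tables used here hold transcript totals, with both alleles summed.

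Each table lists the same 116747 Ensembl transcripts. The gene table used here has no Ensembl identifiers, so 0 transcripts could be given a gene name, and the files do not pair them. Markers of epiblast stem cells or of other cell types could not be read for this reason, and the labelled cell type was not checked. The results below are about transcripts, described by level, direction and length. In bulk RNA, fewer cells of a type and less RNA per cell cannot be told apart.

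The 8 libraries held 42596261 to 72364790 estimated reads. PwkB6 libraries lay further apart than SpretB6 libraries. Across the tested transcripts, Spearman correlations of log2 CPM averaged 0.879 over the 6 pairs within PwkB6, 0.911 over the 6 pairs within SpretB6 and 0.856 over the 16 pairs between the crosses. The lowest correlation within SpretB6, 0.898, was above the highest within PwkB6, 0.891. These correlations are across transcripts, which are not independent replicates. PwkB6 6 stood apart in the summed measures. It had 36548 transcripts with at least 1 TPM (a level corrected for transcript length and scaled to a fixed sum per library), against 30372 to 32033 in the other PwkB6 libraries, and a TMM factor (the scaling of its library size) of 1.19 against 1.00 to 1.06.

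Of 56721 transcripts with enough reads to test, 3121 differed between PwkB6 and SpretB6, which is 5.5% (edgeR quasi-likelihood test, Benjamini-Hochberg adjusted p under 0.05). More of them were higher in SpretB6, 1883 or 3.32% of all tested, than in PwkB6, 1238 or 2.18%. SpretB6 thus held 60.3% of the calls. DESeq2 on the same transcripts called 5975, of which 55.2% were higher in SpretB6. The lead of SpretB6 was lost in 1 alternative. When only transcripts with a mean of at least 5 CPM (read counts scaled to the library size) were tested, 16857 in all, 49.1% of 2409 calls were higher in SpretB6. The log2 fold changes of these transcripts moved by a median of -0.10 in that fit, and the part of this shift in the direction was not tested. The 4 libraries of one cross all lay above the 4 of the other in TPM for 13.9% of the tested transcripts. Among the calls this held for 1642 of the 1883 higher in SpretB6 and 1176 of the 1238 higher in PwkB6. Over all tested transcripts, called or not, such separation was more frequent with PwkB6 above (8.46%) than with SpretB6 above (5.43%). The direction of most calls and the direction of most separated transcripts were therefore not the same. The 2 are on unlike scales, however, since calls rest on TMM-scaled counts and separation on TPM. Over all tested transcripts the median was 1.42 TPM in PwkB6 and 1.19 TPM in SpretB6, but 0.267 and 0.262 log2 CPM. The part of the scale in this contrast was not tested. The fit over 16 libraries used a spread shared by the 4 crosses, whereas the median SD of log2 CPM was 0.518 in PwkB6 and 0.362 in SpretB6. With the fit limited to the 8 libraries of these crosses, 1980 transcripts were called and 60.8% of them were higher in SpretB6. Without SpretB6 3 the calls higher in PwkB6 numbered 791, and without PwkB6 1 they numbered 825.

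The called transcripts held 10.3% to 10.7% of the TPM sum in the SpretB6 libraries and 7.34% to 7.83% in the PwkB6 libraries. The transcripts called higher in SpretB6 summed to 87132 to 91718 TPM in SpretB6 and 30547 to 32833 TPM in PwkB6. The transcripts called higher in PwkB6 summed to 40567 to 45494 TPM in PwkB6 and 15129 to 16771 TPM in SpretB6. These sums describe transcripts chosen for their difference, and no test was made on them.

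In each direction, 1 transcript was named for the largest fitted difference and 1 for the highest level. ENSMUST00000183090.2, of 399 bases, had 0 reads in all 4 PwkB6 libraries. It stood at 2583, 2772, 1565 and 1819 TPM in SpretB6 1, 3, 5 and 6, from 17048 to 41869 reads. In estimated reads, SpretB6 was at least 34979-fold higher than PwkB6, taking 3 reads over the 4 PwkB6 libraries as the limit that 0 reads allow (edgeR adjusted p = 4.86e-05). This limit covers counting error only, and not the division of reads among transcripts. SpretB6 was the only cross of the 4 with reads of this transcript, as CastB6 and MolfB6 also had 0 reads in every library.

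ENSMUST00000118047.2, of 411 bases, had reads in every library of both crosses. It stood at 131, 89.6, 157 and 95.4 TPM in PwkB6 1, 3, 5 and 6, and at 3330, 3555, 3522 and 3228 TPM in SpretB6. The groups lay far apart, and within SpretB6 the libraries differed little, at 3409 ± 156 TPM against 118 ± 31.5 in PwkB6 (SD, n = 4 each). SpretB6 was higher by 4.97 on the log2 scale (SE 0.24; adjusted p = 4.75e-09 by edgeR). CastB6 and MolfB6 stood near the level of PwkB6, at 160 ± 16.3 and 149 ± 29.2 TPM (SD, n = 4 each).

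ENSMUST00000118499.2, of 750 bases, was the named transcript with the opposite pattern of presence. It stood at 588, 464, 527 and 878 TPM in PwkB6 1, 3, 5 and 6 and had 0 reads in all 4 SpretB6 libraries. In estimated reads, SpretB6 was at least 23134-fold lower, by the same limit of 3 reads for counting error only (edgeR adjusted p = 2.06e-08). PwkB6 shared its presence with MolfB6, at 687 ± 61.6 TPM (SD, n = 4), and SpretB6 shared its absence with CastB6, where every library had 0 reads.

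ENSMUST00000181181.2, of 1229 bases, was the highest transcript called in the direction of PwkB6 beyond 2-fold. It stood at 1189, 1347, 973 and 1357 TPM in PwkB6 1, 3, 5 and 6, and at 158, 130, 149 and 153 TPM in SpretB6. All PwkB6 libraries were above all SpretB6 libraries, with a SpretB6 minus PwkB6 difference of -2.89 on the log2 scale (SE 0.17; adjusted p = 6.71e-08 by edgeR). SpretB6 was not the lowest cross here, since CastB6 held 1.90 ± 0.458 TPM, while MolfB6 held 1078 ± 139 (SD, n = 4 each). The estimates of all 4 named transcripts share reads with other transcripts, so they depend on how those reads were divided.

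**Figure D1:**
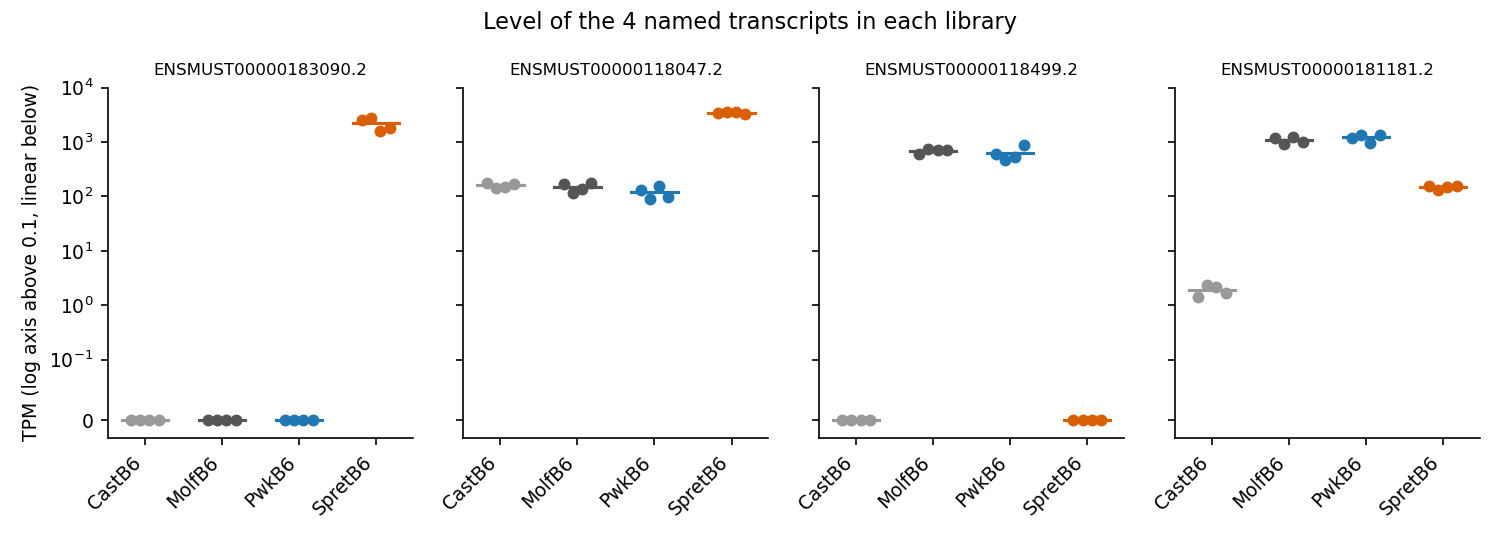
TPM of the 4 named transcripts in each of the 16 libraries, on an axis that is logarithmic above 0.1 and linear below. Points are libraries and bars are means of 4. ENSMUST00000183090.2 had reads in SpretB6 only, and ENSMUST00000118499.2 in PwkB6 and MolfB6 only.

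The share of transcripts called rose with their level in the fit over 16 libraries. The tested transcripts were divided into 4 equal classes by their mean log2 CPM over the 8 libraries. The share called was 2.74% in the lowest class, 4.01% and 6.21% in the middle classes and 9.05% in the highest, against 5.5% over all. When CastB6 and MolfB6 were left out of the fit, the share went from 4.21% in the lowest to 4.82% in the highest class. That fit tested 50087 transcripts in place of 56721, with fewer in the lowest class. The 2 rises are therefore not over the same transcripts and cannot be compared directly. In the fit over 16 libraries the precision rose with level. The median standard error of the log2 fold change was 1.21 in the lowest class and 0.179 in the highest. Calls in the lowest class were large, with a median log2 fold change of at least 5.26 among the 240 higher in SpretB6 and at least 4.14 in size among the 149 higher in PwkB6. In these medians a transcript with 0 reads in a cross was put at its lower bound, which applied to 118 and 52 of them. Calls in the highest class were mostly below 2-fold. The median there was 0.74 for the 831 higher in SpretB6 and -0.84 for the 452 higher in PwkB6. SpretB6 held most calls in each class, from 55.6% in the second highest to 64.8% in the highest. With the filter of 5 CPM it held 50.6% of 2007 calls in the highest, and under DESeq2 it held 48.3% of the calls outside the highest. Without SpretB6 3 the share called was 1.72% in the lowest and 5.72% in the highest class, without SpretB6 1 it was 1.80% in the lowest, and without PwkB6 1 it was 6.02% in the highest.

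The direction of the calls varied with the length of the transcripts. By length the 4 classes ended at 777, 1838 and 3279 bases. The share called was 4.76% in the shortest class, 6.19% and 5.42% in the middle classes and 5.64% in the longest. The order of the extremes in the share called was not stable, as DESeq2 called 8.003% of the shortest and 12.3% of the longest class, and the fit of only the 2 crosses 4.35% and 3.32%. In the fit over 16 libraries, the share of calls higher in SpretB6 was 72.7% of 677 in the shortest class, then 65.6% of 876, 57.3% of 768 and 47.0% of 800 in the longest. The 95% Wilson intervals, which cover counting error only, were 69.2% to 75.9% in the shortest and 43.6% to 50.5% in the longest class. Calls higher in SpretB6 accordingly had a median length of 1511 bases and calls higher in PwkB6 one of 2406 bases, against 1838 for all tested. Of the former 35.4% were shorter than 1000 bases, of the latter 22.4%, and of all tested transcripts 34.1%. The calls higher in SpretB6 were thus near the background in their share of short transcripts, and the calls higher in PwkB6 were below it.

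**Figure D2:**
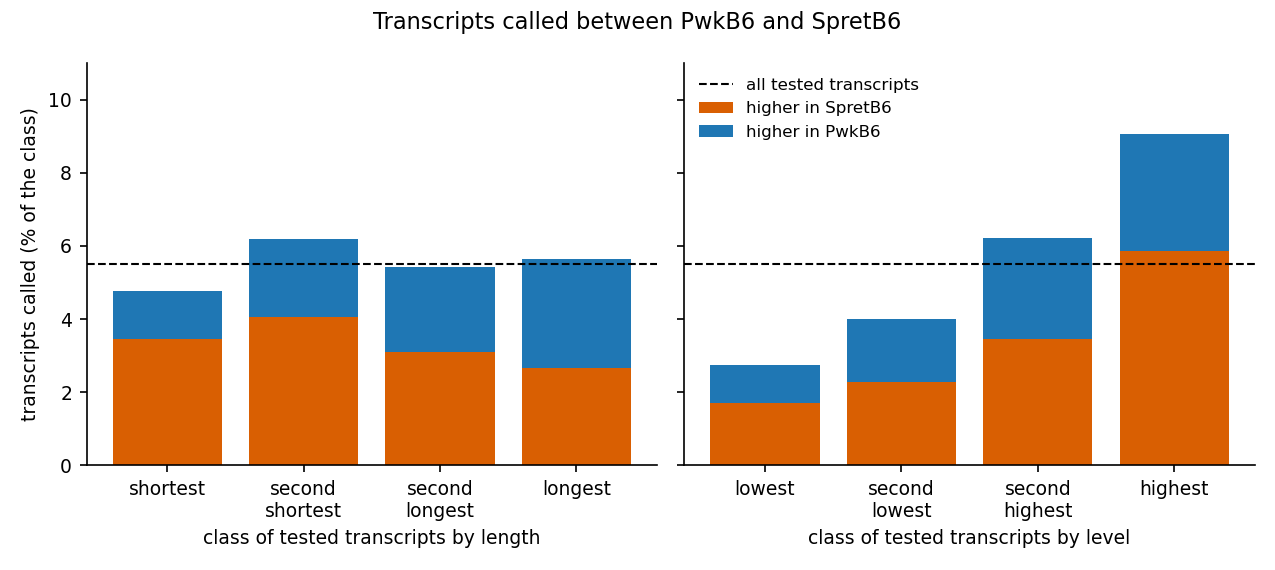
Percent of tested transcripts called in each class by length (left) and by mean level (right), divided by direction. The dashed line is the share over all tested transcripts, 5.5%. The bars grow with level up to 9.05%, and the part higher in PwkB6 grows with length.

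The fall of the SpretB6 share with length was present in every alternative. In 17 of 17 other fits the share fell at each step from the shortest to the longest class. The gap between these classes was 25.7 percentage points here and was smallest, at 18.4, without PwkB6 6. The 17 fits reuse the same libraries or part of them, so they are not independent of the reported fit. The direction shares by length were looked at after the data were seen. Which cross held most calls in the longest class was not stable. SpretB6 held 50.4% there without PwkB6 6, 50.8% without SpretB6 3, 51.2% without SpretB6 5 and 51.5% under limma voom. The share called in that class was 3.18% without SpretB6 3, 3.54% without SpretB6 1 and 3.62% without PwkB6 1.

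Length and level are linked, as the highest class by level held 5618 of the 14175 longest transcripts and 1421 of the 14219 shortest. The direction was therefore counted within both at once. Among the shortest transcripts SpretB6 held 71.7% to 74.2% of the calls at every level. Among the longest it held 34.2% of 76 and 36.5% of 208 calls in the middle classes by level, and 54.5% of 484 calls in the highest. PwkB6 thus led among long transcripts of low and middle level, and SpretB6 among short transcripts of any level. Without PwkB6 6 the shares for the longest transcripts were 36.5%, 39.5% and 57.4% in these 3 classes, and the share for the shortest transcripts of the highest level fell to 60.8%. With the filter of 5 CPM, SpretB6 held 35.8% of 765 calls among the longest transcripts of the highest level and 66.7% of 207 among the shortest of that level. In the fit of only the 2 crosses it held 40.7% of 236 calls among the longest transcripts of the highest level. With the library number added to that fit as a block, it held 44.4% of 36. Which cross led in this cell was therefore not stable.

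**Figure D3:**
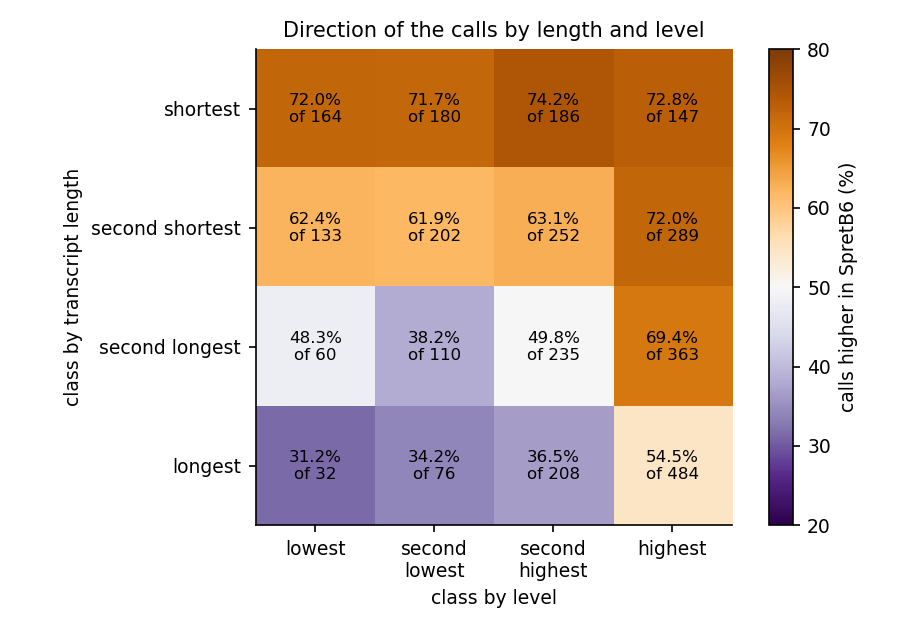
Percent of calls that were higher in SpretB6, for each combination of length class (rows) and level class (columns), with the number of calls. The top row lies between 71.7% and 74.2%. The bottom row is below 50% except at the highest level, where it is 54.5%. That share was 35.8% with the filter of 5 CPM, 40.7% in the fit of only the 2 crosses and 44.4% with the library number added to that fit.

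The libraries themselves differed in how level varied with length. For each library the median deviation of log2 CPM from the mean of the 8 libraries was taken, and its value in the shortest class was subtracted from that in the longest. This length contrast was -0.01, 0.05, -0.07 and 0.28 in PwkB6 1, 3, 5 and 6, and -0.08, -0.17, -0.11 and -0.06 in SpretB6. All SpretB6 libraries were below 0, but PwkB6 5 lay within their range, so the groups overlapped. The mean of the 8 libraries includes PwkB6 6, so 0 is not a neutral level and the sign alone is not interpreted. PwkB6 averaged 0.06 ± 0.15 and SpretB6 -0.11 ± 0.05 (SD over 4 libraries). Over the 70 ways to divide the 8 libraries, the two-sided exact permutation p was 0.0571, and 0.171 after adjustment over the 3 measures tested per library. The smallest p the design allows is 0.0286. That p was reached when the transcripts were divided into 10 length classes and the longest and shortest of these were compared, with a difference of -0.27. Without PwkB6 6 the difference shrank from -0.17 to -0.09 (exact permutation p = 0.171).

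PwkB6 6 had the steepest profile over 10 classes by length. In the longest of these its median deviation was 0.42, whereas the 7 other libraries lay between -0.08 and 0.03. The fragment length correction, which is the median of length minus effective length over transcripts longer than 2000 bases, was 148 to 156 bases in PwkB6 and 150 to 155 in SpretB6, and PwkB6 6 was inside this range at 148. With each transcript's effective length in each library built into the fit, 3118 transcripts were called and the SpretB6 share was 72.8% in the shortest and 46.9% in the longest class. As the corrections were nearly equal between the libraries, this step could change little, and no conclusion on fragment length is drawn from it. Other properties of the RNA that could move with length in PwkB6 6 were not tested.

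**Figure D4:**
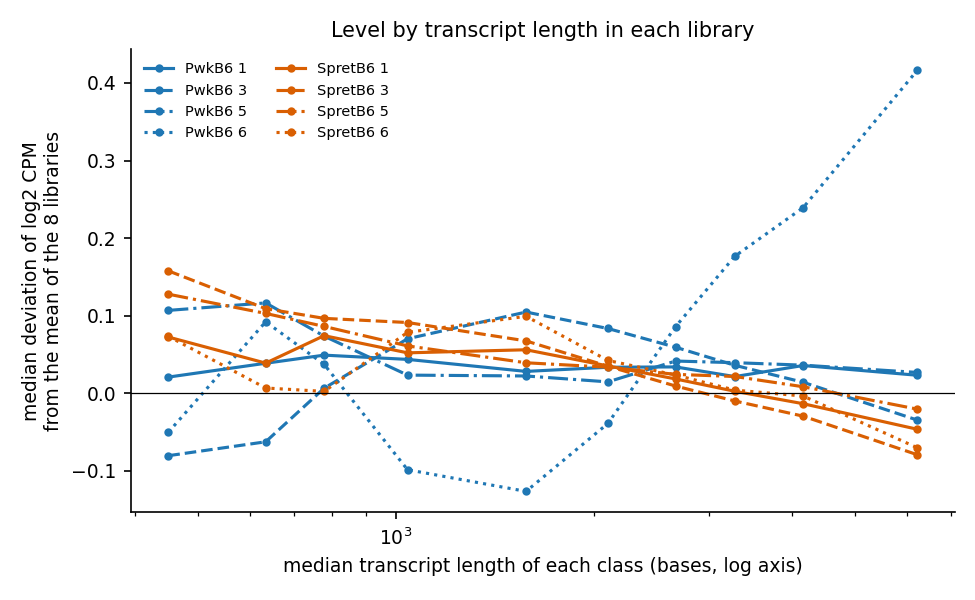
Median deviation of log2 CPM from the mean of the 8 libraries, in 10 equal classes of transcript length (log axis, bases), 1 line per library. From the class with a median of 1577 bases on, the SpretB6 lines decline towards long transcripts. Before it SpretB6 6 rises, from 0.002 at 777 bases to 0.099. PwkB6 6 climbs to 0.42 in the longest class, and it is part of the mean of the 8 libraries.

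The 2 other measures taken per library did not pass the test. Transcripts shorter than 1000 bases held 57.5% ± 2.28 of the TPM sum in PwkB6 and 58.8% ± 0.954 in SpretB6 (SD over 4 libraries; exact permutation p = 0.371, adjusted 0.371). The number of transcripts with at least 1 TPM was 32359 ± 2894 in PwkB6 and 30445 ± 713 in SpretB6 (SD over 4 libraries; exact permutation p = 0.257, adjusted 0.371). PwkB6 6 was the extreme library in both, at 54.4% and 36548. Without it the differences of SpretB6 minus PwkB6 moved from 1.30 to 0.27 percentage points and from -1914 to -517 transcripts.

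The sizes of the calls were distributed differently in the 2 directions. Of the 1883 transcripts higher in SpretB6, 248 differed by less than 1.5-fold, 441 by 1.5-fold to 2-fold, 488 by 2-fold to 4-fold, 214 by 4-fold to 16-fold and 492 by more. Of the 1238 higher in PwkB6, the same classes held 119, 278, 490, 205 and 146. Within their direction, differences over 16-fold thus made up a larger share with SpretB6 higher, and differences of 2-fold to 16-fold a larger share with PwkB6 higher. No test was made of this. Transcripts with larger differences were shorter, among the calls and among all tested. The median length fell from 3013.5 bases under 1.5-fold to 799.5 over 16-fold with SpretB6 higher, and from 4182 to 1274.5 with PwkB6 higher. Level fell alongside, with a median of 5.62 and -1.35 log2 CPM in these classes with SpretB6 higher. Over all tested transcripts, called or not, the median length went from 1923 to 1299 bases between the same classes, and the median level from 1.24 to -2.83 log2 CPM.

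The data also bounded the difference for many transcripts. For 19860 of the tested transcripts, or 35.0%, the 95% interval of the log2 fold change lay within 2-fold in both directions. This held for 78.8% of the highest class by level and for 0.86% of the lowest. In the lowest class a difference of 2-fold was mostly not detectable at this depth. By length the share bounded in this way was 21.8% in the shortest and 44.9% in the longest class.

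All-or-none differences were counted next. A transcript was taken as present in a cross when every one of its 4 libraries held 10 reads or more, and as absent when none held over 3. Of the 2 crosses, 297 transcripts were present in SpretB6 and absent in PwkB6, and 87 the other way round. With at least 50 reads for presence these counts were 136 and 35, and with 0 reads for absence 150 and 60. Of the 297 and 87, 293 and 86 were among the tested transcripts, which is 0.517% and 0.152% of them. The edgeR test called 274 and 64, against 5.5% of all tested, but these transcripts were chosen for their difference. Only 17 and 9 had estimates that were whole numbers in all 8 libraries. The others were taken to share reads with other transcripts, so their presence and absence depend on how those reads were divided. The 297 had a median length of 751 bases and 64.0% of them were shorter than 1000 bases. The 87 had a median of 1203 bases and 47.1% were that short. Of the 35122 transcripts with at least 10 reads in all 8 libraries, 26.6% were that short, with a median length of 2184 bases, so both sets were shorter than the transcripts that all libraries share. Most stood at a low level, with a median of 2.33 TPM in SpretB6 and 1.47 TPM in PwkB6. Tested transcripts of low level were shorter in general. Their median length was 988 bases in the lowest class by level and 2739 in the highest. The part of level in the shortness of the 2 sets was not tested. A mean of at least 100 TPM was reached by 13 and 5 of them. With 1 library left out these counts can only stay or rise, since fewer libraries have to meet the limits. The smaller set then held 155 transcripts without PwkB6 3, 136 without SpretB6 5, 135 without PwkB6 5 and 133 without either PwkB6 1 or SpretB6 6 alone.

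**Figure D5:**
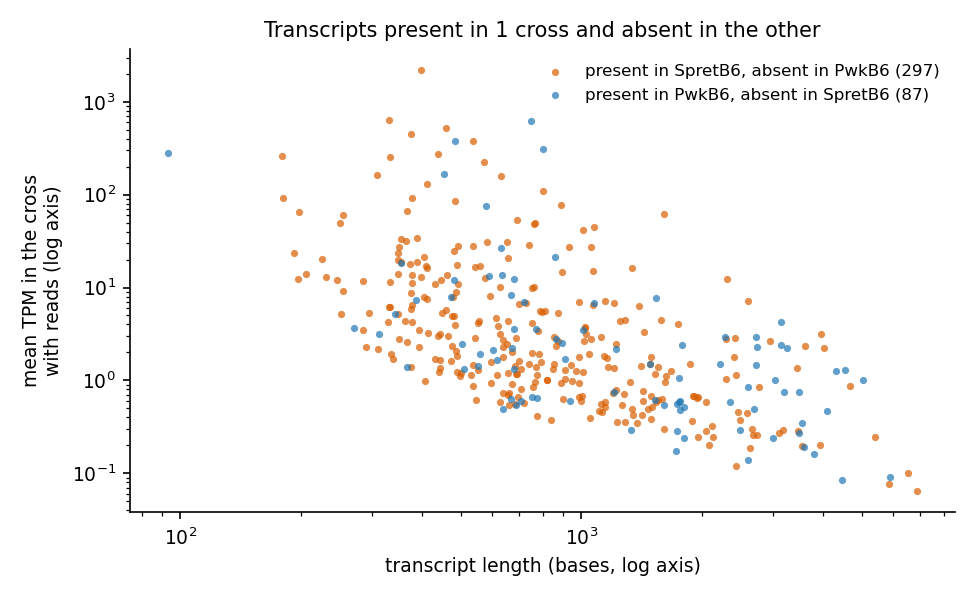
Transcript length (log axis, bases) and mean TPM in the cross with reads (log axis) of transcripts present in SpretB6 and absent in PwkB6 (297 points) or the reverse (87 points). Most points lie at short lengths and low levels. Estimates were whole numbers in all 8 libraries for 17 and 9 of them, and the others depend on how shared reads were divided. The empty lower left follows from the minimum of 10 reads, which is a higher TPM in a short transcript.

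CastB6 and MolfB6 took no part in choosing these transcripts, and their reads were counted by the same limits. Of the 297 transcripts present in SpretB6, 191 were absent in CastB6 and 209 in MolfB6, and 160 were absent in both. They were present in all libraries of CastB6 for 22 and of MolfB6 for 15. Of the 87 present in PwkB6, 25 were absent in CastB6 and 17 in MolfB6, and 14 in both. They were present in CastB6 for 21 and in MolfB6 for 33. The difference between the sets was not tested.

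The same libraries were placed beside the called transcripts. Among the calls higher in SpretB6 the median level was 3.36 log2 CPM in SpretB6, 1.91 in CastB6, 1.70 in MolfB6 and 1.28 in PwkB6. Among the calls higher in PwkB6 it was 2.48 in PwkB6, 2.11 in MolfB6, 1.90 in CastB6 and 0.99 in SpretB6. In both groups CastB6 and MolfB6 lay between the compared crosses. Their medians were closer to that of PwkB6 than to that of SpretB6 in both. The levels of PwkB6 and SpretB6 in these groups follow from the choice of the transcripts, and no test was made. That choice also favours a place in between for any other cross, so no conclusion is drawn from it. CastB6 and MolfB6 were also part of the fit that made the calls.

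Transcripts whose estimates were whole numbers in all 8 libraries, within 0.001, were taken to share no reads with others. There were 1701 among those tested, of which 131 were called, or 7.70%. SpretB6 was higher in 62 and PwkB6 in 69 of them, so that SpretB6 held 47.3% of these calls (95% Wilson interval 39.0% to 55.8%). Among the 2990 calls with divided reads it held 60.9% (59.1% to 62.6%). The whole estimates came from transcripts of lower level, with a median of -1.07 against 0.25 log2 CPM, and of greater length, with a median of 2319 against 1820 bases. The 2 sets of transcripts thus differed in length and level as well as in the division of reads, and the part of each in the direction was not tested.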

How the data were processed

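Total RNA was ribodepleted and sequenced in bulk, per the labels. Salmon, DESeq2 and mm10 are named in the submitters' processing notes. Their versions and settings and the transcript set are not given in the sources used. Per the file headers, the deposited columns hold length, effective length, TPM and estimated counts (reads matching several transcripts are divided among them). Reads from the PWK or SPRET allele may match less well, and this was not measured.

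Estimated counts were rounded and tested per transcript with edgeR 4.0.16 in R 4.3.3 over all 16 libraries: filterByExpr (minimum count 10, total 15), TMM scaling, quasi-likelihood F test of SpretB6 minus PwkB6, Benjamini-Hochberg adjustment, threshold 0.05. Standard errors came from the log2 fold change and F. Log2 CPM used a prior count of 2. The test was tested on simulated counts. These had the same spread in all crosses, no trend with length and no divided reads, so such features of the real data were not covered. DESeq2 1.42.0 and limma 3.58.1 served as alternatives, with other filters, scaling, samples and an effective length offset. Single values per library were compared by exact permutation with scipy 1.17.1.

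The named transcripts were called over 16 and over 8 libraries in the same direction, did not overlap in TPM, and had a mean of at least 10 TPM in the higher cross. Of these, the largest absolute log2 fold change and the highest level past 2-fold were taken in each direction. The gene lists planned as markers could not be used without gene names. The comparison and its classes were chosen with earlier results of these data known. No 2 libraries held identical values (0 pairs). Counting limits for 0 reads (3 reads) and Wilson intervals cover counting error only.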

Additional observations from a re-analysis of the deposited data

How the results depend on the processing

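Each value below was recomputed with 1 choice changed, except that the replicate block was added to the fit of the 2 crosses and the sample quality weights to limma voom. The causes of the changes were not tested unless stated. All 68 values of the 4 named transcripts under the 17 alternatives kept their direction and stayed past the threshold. The fit of only the 2 crosses is among these alternatives and was used to choose the transcripts, so its values could not fail. The transcripts were also chosen from these data as extremes. With RLE scaling and with the effective length offset, the counts stayed within 1.5 times and the shares within their counting intervals. The offset could change little, as the fragment length corrections were nearly equal between the libraries. The median log2 fold change of all tested transcripts lay between -0.09 and -0.02 in every fit, and against the values reported, those of the same transcripts moved by a median of -0.10 with the filter of 5 CPM and of -0.03 to 0.02 in the other fits. Of the 3121 calls, DESeq2 also called 3093 and limma voom 2855.

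DESeq2 called 5975 transcripts, 3297 higher in SpretB6 (55.2%) and 2678 higher in PwkB6. It called 8.003% of the shortest, 12.3% of the longest, 6.34% of the lowest and 16.7% of the highest class, and SpretB6 held 67.0% of the calls in the shortest and 41.7% in the longest. Under limma voom the SpretB6 share was 66.3%, with 5.70%, 6.14% and 9.96% called in the shortest, longest and highest classes, and 78.1% and 51.5% of the shortest and longest calls higher in SpretB6. With sample quality weights, limma voom called 4809, 2068 of them higher in PwkB6 (SpretB6 share 57.0%), and 6.65%, 9.35%, 3.26% and 14.4% of the shortest, longest, lowest and highest classes. With no filter the SpretB6 share was 62.8%, and these classes gave 1.72%, 3.08%, 0.675% and 6.65%, with more transcripts in the denominators. With a filter of 5 CPM, 1184 calls were higher in SpretB6 (49.1%), 15.8%, 13.5% and 14.2% of the shortest, longest and highest classes were called, and SpretB6 held 66.1% and 33.6% of the shortest and longest calls. The lowest class held 13 transcripts there and gave no value. With only the 2 crosses in the fit, 1980 were called, 1204 higher in SpretB6 and 776 higher in PwkB6, with 4.35%, 3.32%, 4.21% and 4.82% of the shortest, longest, lowest and highest classes, and SpretB6 held 76.8% and 38.6% of the shortest and longest calls. That fit tested 50087 transcripts, with fewer in the lowest class, so its denominators differ too.

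The title numbers gave no sign of pairing, as the deviations of same-numbered libraries from their cross means correlated between -0.03 and 0.07 over 4 pairs. With the number as a replicate block in a fit of the 2 crosses, 541 of 50087 tested transcripts were called, 391 higher in SpretB6 (72.3%) and 150 higher in PwkB6. The classes gave 1.72%, 0.573%, 0.424% and 1.22% in the same order, and SpretB6 held 83.2% and 42.7% of the shortest and longest calls.

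With 1 of the 8 libraries left out, the calls numbered 2088 to 3646, 1297 to 2256 higher in SpretB6 and 791 to 1390 higher in PwkB6, and the SpretB6 share was 58.1% to 63.8%. The shares called were 3.40% to 5.27% in the shortest, 3.18% to 6.86% in the longest, 1.72% to 2.37% in the lowest and 5.72% to 12.1% in the highest class. SpretB6 held 68.8% to 77.5% of the shortest and 45.8% to 51.2% of the longest calls. These 2 direction shares by length were added after the data were seen. In the longest class SpretB6 passed 50% without PwkB6 6 (50.4%), SpretB6 3 (50.8%) and SpretB6 5 (51.2%). The transcripts present in SpretB6 only numbered 314 to 364 and those present in PwkB6 only 116 to 155, as fewer libraries have to meet the limits. They numbered 136 and 35 with at least 50 reads for presence, and 150 and 60 with 0 reads for absence. The length contrast lay between -0.21 and -0.09 with 1 library left out, and was -0.27 with the extremes of 10 length classes in place of 4. With 3 libraries against 4, no exact permutation p can pass 0.05.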
